A study of Mus musculus with 8 samples.

Results

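The Ikaros family of zinc finger transcription factors was examined at its 5 genes, Ikzf1 (Ikaros), Ikzf2 (Helios), Ikzf3 (Aiolos), Ikzf4 (Eos) and Ikzf5 (Pegasus), in open-chromatin peak lists of mouse thymocytes. Peaks were taken when they overlapped the annotated gene or the 50 kb on either side of it. Merging the peaks of the 4 libraries gave 174 regions at these genes, of 180321 in the genome. The assay was ATAC-seq, in which a transposase cuts and tags accessible DNA. The cells were DN3 thymocytes of C57BL/6 mice, at the double-negative stage at which the T-cell receptor beta chain is rearranged and tested. All 4 libraries were of this cell type and strain, and no treatment is given. The 2 wild-type libraries had an intact Notch-Myc enhancer, N-Me, a distal element through which Notch activates Myc. In the 2 mutant libraries this enhancer was homozygous for mutated GATA sites, numbered 1 and 2. The labels give neither the age of the mice nor whether replicates came from separate animals, so p-values measure only the spread between these libraries. The leukaemia samples of the series were not analysed here.

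Ikaros, Helios, Aiolos and Eos bind DNA through amino-terminal zinc fingers that read a GGGAA core. Ikaros family proteins pair with one another through carboxy-terminal fingers. They recruit chromatin remodelling and deacetylase complexes and act both as repressors and as activators. Ikaros is required for lymphoid development, and mice that lose it in the T lineage develop Notch-driven leukaemia, since Ikaros restrains Notch target genes in early thymocytes. Helios marks early T-lineage and regulatory T cells, Aiolos acts mainly in later lymphocytes, Eos works with Foxp3 in regulatory T cells, and Pegasus is the most divergent and most widely expressed of the family.

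RefSeq promoter sequences (GRCm38.p6, 250 bases before to 50 after the listed start) were at hand for 2 of the 5 genes, Ikzf1 with 2 starts and Ikzf5 with 1. They are shown because each lay in a peak of every library. The first Ikzf1 start (chr11:11685675-11685974, plus strand) and the Ikzf5 start (chr7:131410429-131410728, minus strand) had all 300 bases inside a peak in each library. The second Ikzf1 start (chr11:11689927-11690226, plus strand) had 261 and 244 of 300 bases inside the wild-type peaks and 270 and 256 inside the mutant peaks. Sequences are written 5′ to 3′ on the gene's strand, and capitals mark GGGAA or CAGGAAG (an ETS motif) on either strand.
Ikzf1, first start: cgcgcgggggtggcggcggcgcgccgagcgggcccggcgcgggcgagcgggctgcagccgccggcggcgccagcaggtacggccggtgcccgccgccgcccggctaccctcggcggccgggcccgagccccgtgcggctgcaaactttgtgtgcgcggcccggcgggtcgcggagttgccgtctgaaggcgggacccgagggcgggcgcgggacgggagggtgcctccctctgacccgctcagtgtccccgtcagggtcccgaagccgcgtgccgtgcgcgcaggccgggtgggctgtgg
Ikzf1, second start: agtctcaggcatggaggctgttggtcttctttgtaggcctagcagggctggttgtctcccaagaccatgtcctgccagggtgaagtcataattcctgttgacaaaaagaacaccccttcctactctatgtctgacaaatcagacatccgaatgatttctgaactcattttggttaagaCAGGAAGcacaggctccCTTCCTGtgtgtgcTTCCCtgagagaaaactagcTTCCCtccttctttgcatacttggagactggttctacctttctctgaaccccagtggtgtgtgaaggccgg
Ikzf5: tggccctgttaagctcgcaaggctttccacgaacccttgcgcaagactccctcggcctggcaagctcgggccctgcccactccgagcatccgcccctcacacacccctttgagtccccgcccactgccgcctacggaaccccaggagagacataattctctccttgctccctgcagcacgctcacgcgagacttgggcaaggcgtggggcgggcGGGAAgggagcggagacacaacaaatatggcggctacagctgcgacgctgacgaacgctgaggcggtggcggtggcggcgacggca
The first Ikzf1 promoter was 81.3% G and C with 52 CG dinucleotides, more than 99.4% of 32817 promoters in the table, whose medians were 52.7% and 7. The second was 49.0% G and C with 2 CG dinucleotides. The Ikzf5 promoter had 65.7% G and C and 27 CG dinucleotides.

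Motif letters differed between these promoters. GGGAA occurred 2 times in the second Ikzf1 promoter and 1 time in that of Ikzf5, and at least once in 62.7% of all promoters. CAGGAAG occurred 2 times in the second Ikzf1 promoter, and 13.3% of all promoters held it. The GATA motifs AGATAA (11.2% of all promoters) and TGATAA (9.06%), the RBPJ motif GTGGGAA (6.39%), which contains GGGAA, and the RUNX motif TGTGGT (16.8%) occurred in none of the 3. The E-box CANNTG (72.3% of promoters), not capitalised above, occurred 1 time in the Ikzf5 promoter and in neither Ikzf1 promoter.

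Each library had its own peak list, with 169255 and 156372 peaks in wild type and 121022 and 119023 in mutant. Median peak width was 284 and 302 bp in wild type and 444 and 421 bp in mutant. The shortest peak (64 and 65 bp against 73 and 87 bp) and the smallest gap between peaks (257 and 261 bp against 293 and 349 bp) were also longer in the mutant lists. Longer joining gaps make peaks fewer and wider, so peak numbers and widths cannot be told apart from list construction. Peak lists hold no read counts, so depth is unknown, and a missing peak means only that none was listed there. All 10 DN3 markers had a gene start or end with a peak in all 4 libraries. So did all 6 late thymocyte markers, 3 of 5 myeloid, 2 of 5 erythroid, 4 of 5 NK and innate, and 2 of 5 thymic stroma markers, against 66.8% of 21883 protein-coding genes. Gata1, Hba-a1, Ncr1, Psmb11 and Krt5 had none in any library. The myeloid genes Csf1r and Mpo and the erythroid gene Slc4a1 had a peak in both wild-type libraries and in neither mutant library, and the stroma gene Foxn1 in 1 wild-type library. The part of other cells in the results was not tested.

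Each of the 5 Ikaros family genes had a peak within 1 kb of a listed start, or of an annotated end where no start was listed, in all 4 libraries, as did 66.8% of protein-coding genes. Among peaks of fold 4 or more this held at Ikzf3 and Ikzf5, while Ikzf1 and Ikzf2 had such a peak in 0 libraries and Ikzf4 in 1. Open chromatin was densest at Ikzf1 and sparsest at Ikzf5. Ikzf1 held 53 regions, Ikzf2 43, Ikzf3 41, Ikzf4 27 and Ikzf5 10. Per 100 kb of window, this was 28.2, 16.8, 22.6, 19.4 and 8.21 regions in the same order, against a median of 12.9 over windows of all protein-coding genes. Averaged over the 4 libraries, peaks covered 13.6% of the Ikzf1 window, 11.8% at Ikzf4, 9.66% at Ikzf3, 5.51% at Ikzf2 and 4.69% at Ikzf5. The median gene window had 5.13% covered. The Ikzf1 share was higher than that of 94.6% of gene windows, the Ikzf4 share higher than 89.2% and the Ikzf3 share higher than 79.7%. Ikzf2 and Ikzf5 stood near the middle, above 52.7% and 46.5% of windows. Ikzf1 ranged from 12.2% to 15.4% over the libraries and Ikzf4 from 10.9% to 12.2%. These ranges met, but within each library the Ikzf1 share was the higher. Ikzf3 lay below both and above Ikzf2 and Ikzf5 in every library, and the last pair overlapped.

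**Figure D1:**
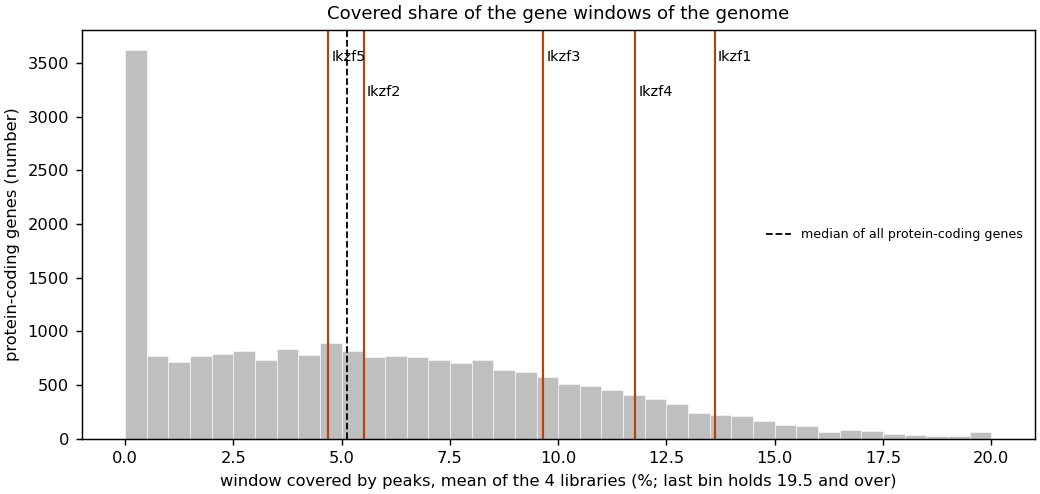
Number of protein-coding genes (y axis) by the share of the gene body and 50 kb on each side that peaks cover, as the mean of the 4 libraries in percent (x axis). Solid lines mark the 5 Ikaros family genes and the dashed line the median of 5.13%, with Ikzf1 at 13.6% and Ikzf5 at 4.69%.

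**Figure D2:**
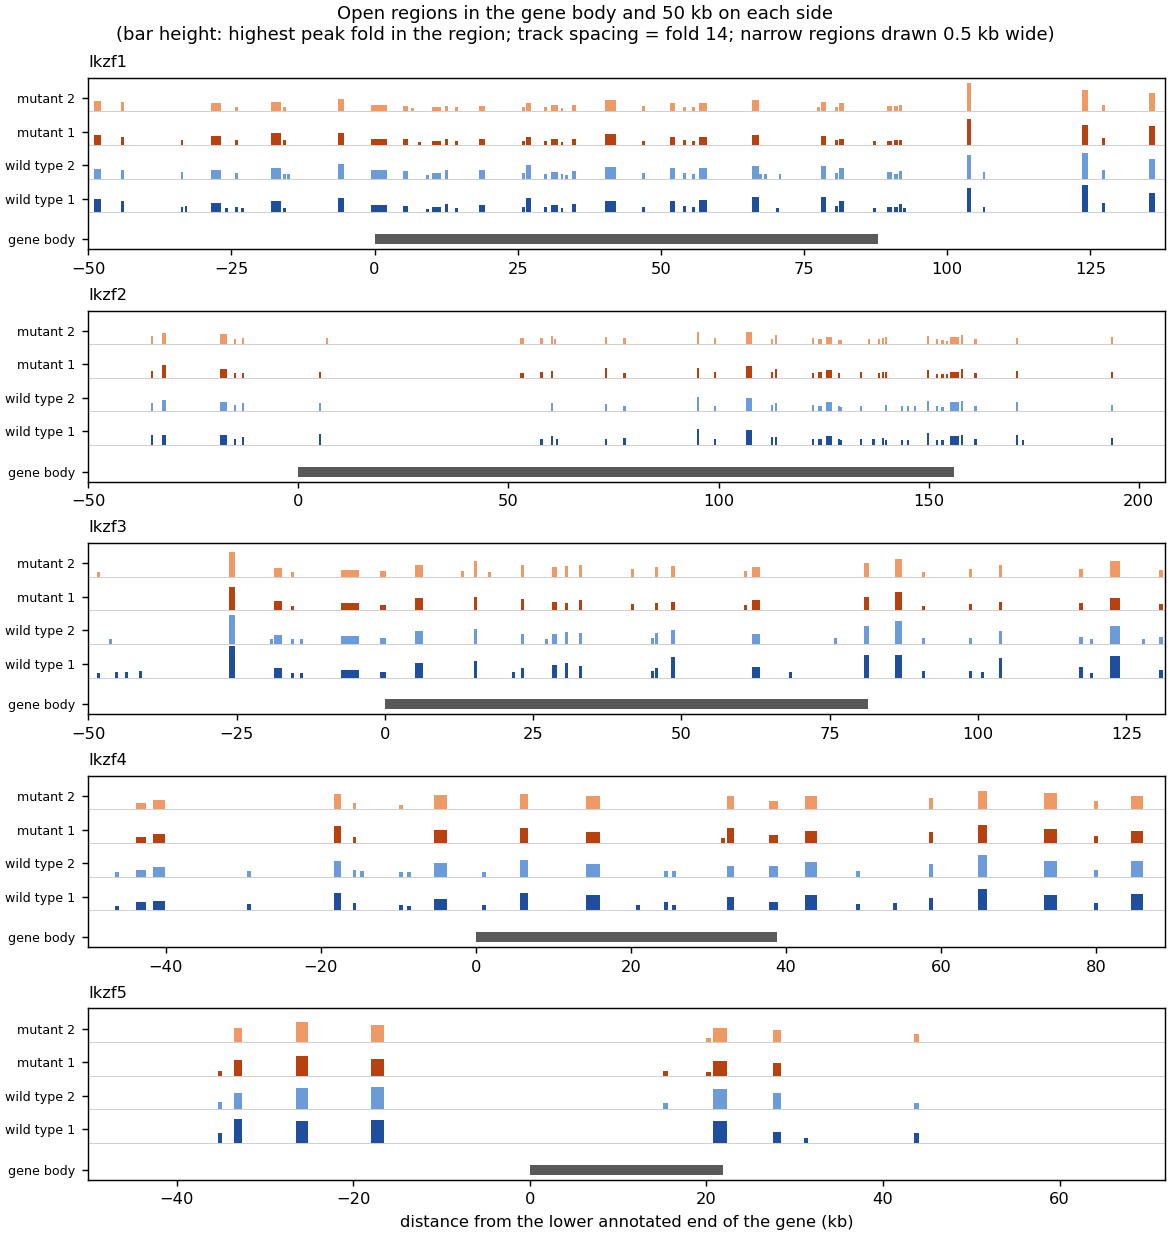
Regions in the window of each gene, by distance from the lower annotated end of the gene in kb (x axis), with 1 track per library. Bar height is the highest peak fold of that library in the region, and the grey bar is the gene body. Ikzf1 shows regions throughout its body, while Ikzf2 has an empty stretch of 45.9 kb.

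Ikzf1 lies on the plus strand at chr11:11684962-11772930, in a window shared with the lncRNA Gm11999 and the genes Fignl1 and Ddc. Of its 53 regions, 32 touched the gene and 21 lay outside it, and 35 were called in all 4 libraries. The widest was the region at the first start, chr11:11684329-11687063, whose peak was 2378 and 2275 bp wide in wild type and 2467 and 2637 bp in mutant. Its fold enrichment, the authors' ratio of pileup to local background averaged over the peak, was 3.06 and 3.45 in wild type and 2.68 and 2.72 in mutant. Both mutant values were below both wild-type values, and both mutant peaks were longer. Because fold is averaged over the peak, width and fold are not independent, here or at the other starts and ends. Ranked among the 102231 regions called in all 4 libraries, the same region stood at percentiles 19.8 and 33.3 in wild type and 27.2 and 23.4 in mutant, which overlap. Gm11999 starts within this region on the opposite strand, so its signal cannot be assigned to one gene. The second start, in chr11:11689957-11690848, had fold 2.70 and 3.1 in wild type and 2.38 and 2.35 in mutant.

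Some shared regions of the Ikzf1 window were of low fold, as at Ikzf2. Of the 35, 14 stood under the 25th percentile in every library, as did 10 of 26 at Ikzf2 and 27 of the family's 103. The same count over all shared regions of the genome was not made. The median fold at Ikzf1 was 3.40 and 3.55 in wild type and 2.50 and 2.70 in mutant. By the lowest of its 4 folds, the strongest region lay outside genes, 15.5 kb beyond the downstream end of Ikzf1, at chr11:11788390-11789149. Its fold was 10.3 and 9.84 in wild type and 10.7 and 12.0 in mutant. It stood at percentiles 96.3 and 97.1 in wild type and 99.8 and 99.9 in mutant, so it was among the strongest shared regions in each library, and its rank was higher in both mutant lists. The region at the start of Fignl1, an AAA ATPase gene (chr11:11808469-11809564), followed with fold 11.2 and 10.9 in wild type and 8.40 and 9.07 in mutant. A region inside Ddc, which encodes aromatic amino acid decarboxylase (chr11:11820297-11821245), had fold 8.22, 8.12, 7.97 and 7.78 in the 4 libraries.

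Ikzf1 had 2 regions called only in wild type, 5.26% of the 38 called in both wild-type libraries, against 15.0% genome-wide. They were chr11:11791336-11791446, with fold 2.22 and 2.61, and chr11:11694147-11694395 inside the gene, with fold 1.56 and 1.51. Both were weak, and mutant peaks lay 2192 and 686 bp away. None of 36 regions was called only in mutant, against 1.75% genome-wide. A limit of 3 counts allows a share of up to 8.33% here, and the exact binomial 95% interval reaches 9.74%.

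Ikzf2 stood alone in its window, which held no other annotated gene. Its annotation spans chr1:69531207-69687351, and the tables used here give no start or strand. Of 43 regions, 33 touched the gene and 26 were called in all 4 libraries. No region was called from 69538156 to 69584009, a stretch of 45.9 kb inside the gene. The region at the upper end, chr1:69686351-69688420, was the widest, with a peak of 1216 and 992 bp in wild type and 2070 and 1422 bp in mutant. Its fold was 3.77 and 3.77 in wild type and 2.26 and 2.84 in mutant, and its percentiles were 34.8 and 40.7 against 14.1 and 27.1. The mutant peaks were thus longer and of lower fold and rank, with no overlap. No peak was called within 1 kb of the lower end in any library, the closest lying 5118, 5077, 5164 and 6858 bp away.

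Away from its ends, the 2 leading regions by wild-type fold lay inside Ikzf2. The region chr1:69637806-69639171 had fold 6.17 and 5.60 in wild type and 5.06 and 5.18 in mutant. A narrower one, chr1:69626074-69626429, had 6.47 and 5.96 against 3.97 and 4.86, and its percentile was lower in both mutant lists (75.5 and 76.0 against 58.8 and 71.0). Outside the gene, 31.4 kb from its lower end, chr1:69498860-69499758 had fold 4.20 and 4.87 in wild type and 5.15 and 4.80 in mutant. Its percentile was higher in mutant (43.0 and 61.6 against 77.2 and 70.1).

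Ikzf2 had 3 of the 6 regions called only in mutant, all inside the gene. They made up 9.68% of the 31 called in both mutant libraries (exact binomial interval 2.04 to 25.8), against 1.75% genome-wide. The genome-wide share lay below this interval, which covers counting error only. The largest of the 3 regions, chr1:69584010-69584835, borders the empty stretch. It held peaks of 667 and 502 bp with fold 2.01 and 2.49, and the nearest wild-type peak was 3951 bp away. The others were chr1:69669211-69669386, with fold 1.98 and 2.33, and chr1:69685553-69685770, with fold 1.58 and 1.38. The 2 regions called only in wild type, chr1:69674873-69675031 (2.15 and 2.25) and chr1:69676158-69676280 (2.02 and 2.27), lay in the same gene and were as weak. They made up 6.45% of the 31 called in both wild-type libraries, against 15.0% genome-wide.

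Ikzf3 is annotated at chr11:98464610-98546031, with Erbb2, Mien1 and Grb7 below it and Zpbp2 and Ormdl3 above it. It had 41 regions, 20 of them touching the gene, and 22 were called in all 4 libraries. Its upper end, chr11:98545435-98546208, stood with the start of Ikzf5 above the other member starts and ends in fold. Fold there was 9.45 and 7.38 in wild type and 5.45 and 5.59 in mutant, with percentiles of 94.0 and 87.9 against 80.6 and 80.1. Peak width was 522 and 594 bp in wild type and 774 and 755 bp in mutant. Here too the mutant peaks were longer, lower and lower in rank, and these traits are not independent. The region at the lower end, chr11:98463793-98464805, was weak, with a highest peak fold of 2.46, 2.49, 2.23 and 2.22 in the 4 libraries.

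The leading regions of the Ikzf3 window lay at starts of its neighbours. The start of Mien1 (chr11:98438360-98439284) had fold 12.9 and 11.9 in wild type and 9.66 and 10.3 in mutant, above the 99th percentile in each library. The start of Zpbp2, a sperm protein gene (chr11:98550573-98551769), had fold 9.49, 9.41, 7.47 and 7.45. Inside Ikzf3, the leading region by its lowest fold over the 4 libraries was chr11:98479571-98480098, with fold 6.75 and 6.08 in wild type and 5.75 and 6.46 in mutant. It stood at percentiles 78.2 and 77.3 against 83.7 and 87.9. The widest region, chr11:98457276-98460259 in Mien1, covered 2891 bp in both wild-type libraries and 2981 and 2768 bp in mutant.

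Ikzf3 had 2 regions called only in mutant, both inside the gene, and 3 called only in wild type. The former made up 8.33% of the 24 called in both mutant libraries (exact binomial interval 1.03 to 27.0), against 1.75% genome-wide. The latter made up 12% of the 25 called in both wild-type libraries (interval 2.55 to 31.2), against 15.0% genome-wide. Each genome-wide share lay within its interval. The mutant ones were chr11:98506145-98506401, with fold 2.48 and 3.06, and chr11:98525301-98525516, with fold 2.34 and 2.36. Of those in wild type, chr11:98509728-98509847 lay inside the gene with fold 2.63 and 2.55, 298 bp from a mutant peak. The others lay in Ormdl3 (chr11:98583729-98583843, fold 1.93 and 1.99) and where Grb7 and Mien1 overlap (chr11:98450325-98450782, 1.86 and 1.93).

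Ikzf4, at chr10:128630839-128669671, lies in the most gene-dense window, with 11 other annotated genes, among them Rps26, Suox, Rab5b, Pmel and Cdk2. Only 9 of its 27 regions touched Ikzf4 itself. At its upper end, chr10:128668708-128669780 was called in all 4 libraries with fold 3.56 and 4.48 in wild type and 3.22 and 3.49 in mutant. Its percentiles, 30.2 and 55.1 against 41.8 and 44.8, overlapped. Near the lower end, chr10:128631691-128632055 was called only in wild type, with fold 2.3 and 2.09, and the nearest mutant peak was 4431 bp away. Of the 15 regions called in all 4 libraries, the leading one inside the gene by lowest fold was chr10:128636486-128637627, with fold 7.17 and 6.75 in wild type and 6.35 and 6.45 in mutant. Outside genes, chr10:128612556-128613471 had fold 7.0, 6.57, 6.92 and 6.26. The start of Rab5b, an endosomal GTPase gene, led the window (chr10:128695665-128696818, which also touches the end of Pmel), with fold 8.93, 8.83, 7.33 and 7.65. The widest region, chr10:128645023-128646820, lay inside Ikzf4 where the lncRNA Gm26876 starts, with fold 6.51, 5.06, 4.45 and 5.70.

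Ikzf4 accounted for 7 of the 14 wild-type-only regions of the family, 30.4% of the 23 called in both wild-type libraries (exact binomial 95% interval 13.2 to 52.9). The genome-wide share, 15.0%, lay within this interval. They were 80 to 444 bp wide with fold between 1.62 and 3.21. The leading ones were chr10:128679973-128680193 in Rab5b (2.76 and 2.46), chr10:128601491-128601677 outside genes (2.54 and 2.46) and chr10:128655122-128655498 inside Ikzf4 (3.21 and 2.36). Mutant peaks lay 1013 to 10763 bp from the 7 regions. None of 15 regions was called only in mutant, against 1.75% genome-wide. The limit of 3 counts allows a share of up to 20%, and the exact binomial 95% interval reaches 21.8%.

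Ikzf5 had the simplest locus, with 10 regions, of which 5 were called in all 4 libraries. Its start at chr7:131410478 lies 123 bases from that of Acadsb, an acyl-CoA dehydrogenase gene on the opposite strand, so that 1 region, chr7:131409405-131410927, served both. This region had the highest −log10 q of any member start, 251.8 and 178.5 in wild type and 176.4 and 148.2 in mutant. Its fold was 9.19 and 8.36 in wild type and 5.93 and 5.92 in mutant, with percentiles of 93.1 and 92.8 against 85.3 and 83.4. Its peak was 1020 and 1361 bp wide in wild type and 1522 and 1488 bp in mutant. Fold was lower in both mutant than in both wild-type libraries at all 7 shared starts or ends of the family and at 65 of its 103 shared regions, against 66.7% of shared regions genome-wide. The other strong regions were the starts of 2310057M21Rik (chr7:131362235-131363495, fold 9.18, 8.89, 8.08 and 8.38) and of Pstk, a selenocysteine tRNA kinase gene (chr7:131370672-131372185, 9.51, 9.21, 6.82 and 7.12). A region inside 2310057M21Rik, chr7:131355206-131356092, had fold 9.79, 6.68, 6.34 and 5.63. From the Pstk start region to the next region, inside Ikzf5, nothing was called for 31.8 kb. Only chr7:131408815-131408976 was called only in mutant, with fold 1.55 and 1.80 and a wild-type peak 547 bp away. This was 16.7% of the 6 called in both mutant libraries (exact binomial 95% interval 0.421 to 64.1), against 1.75% genome-wide. None of 7 regions was called only in wild type, against 15.0% genome-wide. The limit of 3 counts allows a share of up to 42.9%, and the exact binomial 95% interval reaches 41.0%.

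**Figure D3:**
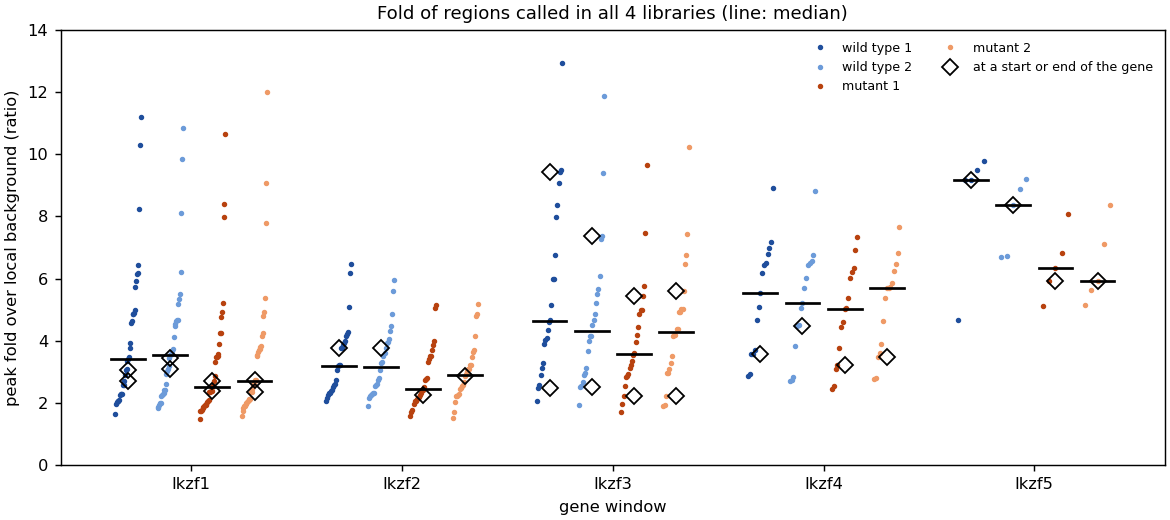
Peak fold over local background (y axis, ratio) of regions called in all 4 libraries, by gene window and library (x axis). Each dot is a region, black lines are medians, and diamonds are regions within 1 kb of a listed start or, for Ikzf2, Ikzf3 and Ikzf4, of an annotated end. Diamonds are lower in both mutant libraries at each of the 7 starts or ends shown, as are 66.7% of shared regions genome-wide, and the highest Ikzf1 mutant values are those of the distal region at 10.7 and 12.0.

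The genotypes were then compared over all 5 genes, to ask whether accessibility of this family differed when the GATA sites of N-Me were mutated. Of 174 regions, 103 (59.2%) were called in all 4 libraries, against 56.7% of all regions, and 38 (21.8%) in 1 library only, against 20.1%. Peaks of both wild-type libraries met at 124 regions, and 14 of these had no mutant peak, which is 11.3% (exact binomial 95% interval 6.31 to 18.2). The genome-wide share was 15.0%, so the loss of calls was near the background. Peaks of both mutant libraries met at 112 regions, and 6 of these had no wild-type peak, which is 5.36% (interval 1.99 to 11.3), against 1.75% genome-wide. Those 6 all lay inside member genes, 3 in Ikzf2, 2 in Ikzf3 and 1 in Ikzf5. Their fold ran from 1.38 to 3.06 and their width from 162 to 826 bp. Leaving out the 8 regions at member starts or ends, 89 of the 174 regions lay inside member genes, as did 6 of the 14 wild-type-only regions. Neighbouring regions are not replicates, so the intervals cover counting error only. When lists were trimmed to the same number of peaks, the wild-type-only count was 2 (2.15%, against 4.92% genome-wide) and the mutant-only count 13 (11.9%, against 6.99%). Among peaks of fold 4 or more these counts were 7 (15.2%, against 19.7% genome-wide) and 1 (2.94%, against 1.55%). At −log10 q of at least 5 they were 6 (6.98%, against 10.3%) and 3 (3.85%, against 1.72%). The wild-type-only count was 26 without wild-type replicate 1 (19%, against 21.0% genome-wide) and 31 without wild-type replicate 2 (21.2%, against 25.4%). The mutant-only count was 13 without mutant replicate 1 (10.5%, against 3.83%).

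**Figure D4:**
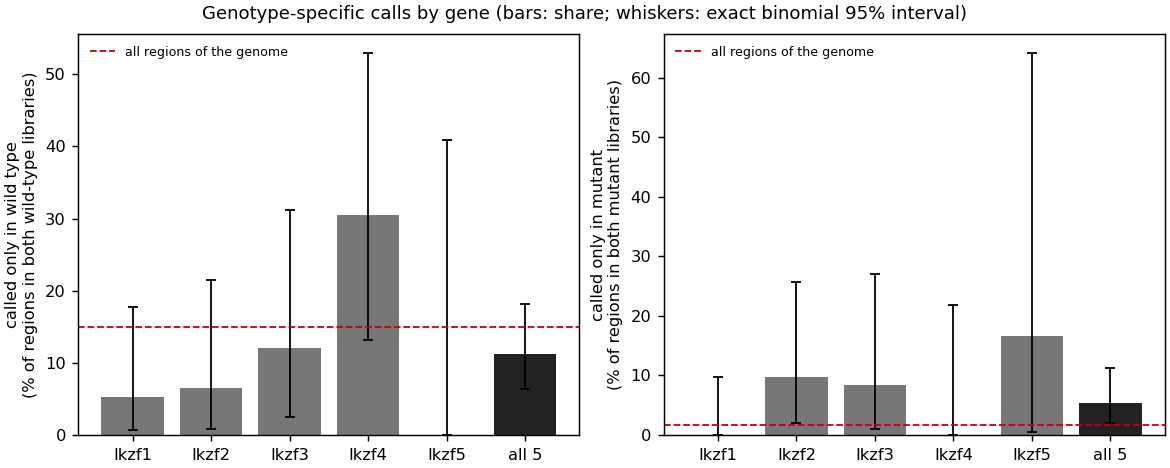
Wild-type-only regions (left, as % of those in both wild-type libraries) and mutant-only regions (right, as % of those in both mutant libraries), by gene and over all 5. Whiskers are exact binomial 95% intervals and the dashed line is the genome-wide share, 15.0% and 1.75%. Ikzf4 has the highest wild-type-only share, 30.4%, with an interval that includes the genome-wide share.

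Fewer but longer peaks were listed at the Ikaros family genes in mutant. Their number was 159 and 148 in wild type and 123 and 125 in mutant (153.5 ± 7.78 against 124 ± 1.41, SD, n = 2 each, exact two-sided permutation p = 0.333). The mutant libraries were lower than both wild-type libraries, with a ratio of 0.808, and genome-wide the ratio was 0.737. With equal numbers of peaks per list, a setting that removes mostly wild-type peaks, the direction turned, with 13.5 more peaks in mutant. Covered length was 75.5 and 72.7 kb in wild type and 88.1 and 80.8 kb in mutant (74.1 ± 1.99 against 84.5 ± 5.14 kb, SD, n = 2 each, exact two-sided permutation p = 0.333). This is a ratio of 1.14, with no overlap between genotypes, whereas over the genome the ratio was 0.991 and the genotypes overlapped. A p of 0.333 is the smallest that 2 against 2 libraries allow. Once short peaks were dropped and near ones joined by the same limits in all lists, the covered ratio was 1.11. Without mutant replicate 1 the difference fell from 10.4 to 6.73 kb (1.09), and among peaks of fold 4 or more the ratio was 1.02. The genome-wide ratio was not computed under these settings, so 0.991 is not a background for them.

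By gene, covered length was longer in both mutant libraries at 4 of the 5, against 23.3% of protein-coding gene windows. At Ikzf2 it was 13.0 and 11.1 kb in wild type and 16.9 and 15.4 kb in mutant, a ratio of 1.34. At Ikzf1 it was 23.9 and 22.9 kb against 28.9 and 26.6 kb, a ratio of 1.19. Ikzf5 had 4.96 and 5.76 kb against 6.24 and 5.91 kb (ratio 1.13), and Ikzf3 16.7 and 16.6 kb against 19.1 and 17.6 kb (1.10). At Ikzf4 the genotypes overlapped, with 16.9 and 16.4 kb against 16.9 and 15.2 kb (0.965), and without mutant replicate 2 the direction turned (1.02). The exact two-sided permutation p was 0.333 at 4 genes and 1 at Ikzf4.

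Regions that both genotypes shared held the extra length. The 103 shared regions covered 68.3 and 67.9 kb in wild type and 84.2 and 76.6 kb in mutant, a ratio of 1.18, against 1.09 over all shared regions of the genome. Both mutant libraries covered more of the region than both wild-type libraries at 56 of the 103 (54.4%), against 38.8% genome-wide. The reverse held at 7, against 19.8% genome-wide. Shared regions were wider at these genes, with a median of 760 bp against 608 bp genome-wide, and the genome-wide values were not matched for width. Inside the Ikzf1 gene the covered share was 14.7% and 14.3% in wild type and 19.5% and 17.7% in mutant, and in its flanks 11.0% and 10.2% against 11.8% and 11.0%. Inside Ikzf2 it was 5.07% and 4.22% against 7.0% and 6.42%, and in its flanks 5.12% and 4.46% against 5.98% and 5.39%. Inside Ikzf4 it was not longer in mutant, with 12.7% and 11.9% against 12.0% and 10.2%. The regions with the greatest gain, picked after their values were seen, were the upper end of Ikzf2 described above and chr11:11741624-11743009 inside Ikzf1. The latter covered 809 and 761 bp in wild type, as 2 and 3 peaks, and 1372 bp as 1 peak in each mutant library. The part that longer joining gaps play in single regions was not tested.

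**Figure D5:**
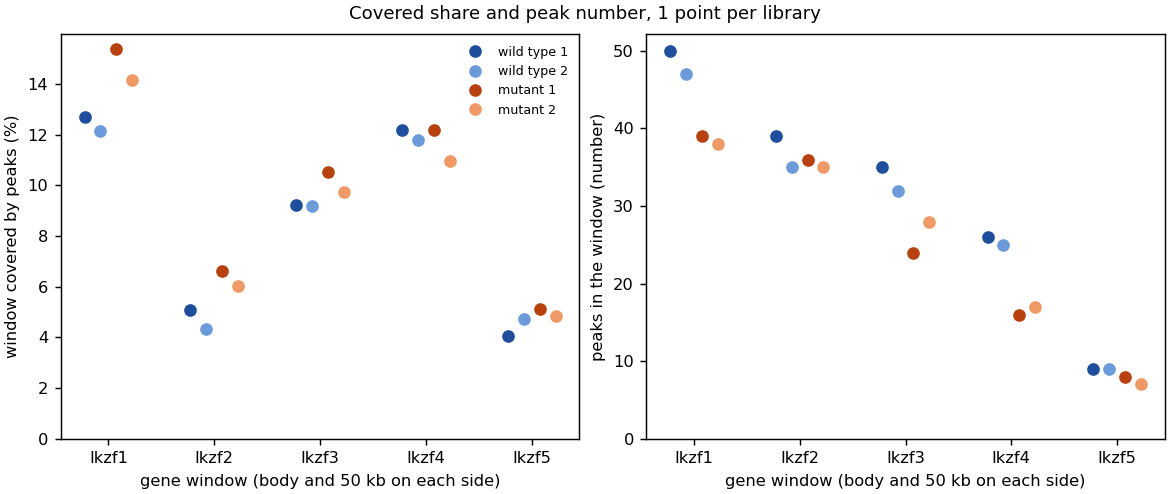
Share of each gene window covered by peaks in percent (left, y axis) and number of peaks (right, y axis) at the 5 genes, with 1 point per library. Both mutant points lie above both wild-type points in covered share at Ikzf1, Ikzf2, Ikzf3 and Ikzf5, while peak numbers are lower in both mutant libraries at Ikzf1, Ikzf3, Ikzf4 and Ikzf5.

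Ranks of fold within each list showed no common direction. Among the 103 shared regions, 23 (22.3%) ranked higher in both wild-type than in both mutant libraries, against 27.7% genome-wide, and 35 (34.0%) ranked higher in both mutant libraries, against 32.4% genome-wide. The genes differed: Ikzf4 had 0 of 15 and 9 of 15 in these directions, Ikzf3 had 3 and 9 of 22, Ikzf2 had 8 and 8 of 26, and Ikzf1 had 10 and 8 of 35. Ikzf5 had 2 and 1 of 5. The Jaccard index of covered bases in the 5 windows was 0.773 between wild-type and 0.795 between mutant libraries, and 0.683 to 0.724 across genotypes. It was lowest at Ikzf2, with 0.706 and 0.675 within and 0.528 to 0.656 across genotypes.

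Most genes that work with Ikaros had a peak at a start, or at an annotated end where no start was listed, in both genotypes. Of 21 genes of its complexes and turnover, such as Chd4, Hdac1 and Sin3a, 20 had such a peak in all 4 libraries. The exception was Ctbp2, a corepressor gene whose listed start had no peak in any. For Chd3, Hdac1 and Mta3, and for the targets Cd4, Hes1 and Myc, either annotated end counted, so a peak at the start itself is not shown. Of 16 genes known as Ikaros targets, such as Dntt, Hes1 and Ptcra, 15 had such a peak in all 4 libraries. Vpreb1, a surrogate light chain gene of B-cell precursors, had none, while Igll1, also a surrogate light chain gene, was among the 15. Over all protein-coding genes the share was 66.8%. None of these 37 genes had a start or end called in 1 genotype only, as was the case for 1.76% of protein-coding genes in wild type and 0.0914% in mutant.

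The genes most like each member in covered share over the 4 libraries were found by the smallest maximum difference. For Ikzf1 they were Dtx1, within 0.289 percentage points in every library, Foxj1 (0.566) and Slfn9 (0.585). Dtx1 had 12.5% and 12.4% covered in wild type and 15.3% and 14% in mutant. For Ikzf2 they were Zfp51, Bbs4 and Atp8b4 (0.222 to 0.30), for Ikzf3 Fam210a, Ccdc162 and Rrp12 (0.146 to 0.214), for Ikzf4 Gbgt1, Ralgds and Galnt2 (0.225 to 0.294) and for Ikzf5 Boll, Hmmr and Tmem87a (0.198 to 0.225).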

How the data were processed

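Peak lists of 4 DN3 ATAC-seq libraries were used. MACS2 2.1.1, SAMtools 1.7, Bowtie2 2.3.3.1 and cutadapt 1.16, with build mm10 (GRCm38), are named in the submitters' processing notes. The sources used here do not give their settings or any shift of reads. The deposited score is the −log10 q times 10, truncated. The deposited fold is a ratio to local background, and the deposited −log10 p and −log10 q describe a peak within its list. Folds are compared between libraries only as values side by side or as ranks among shared regions.

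Autosomal, X and Y peaks were merged where they shared 1 base or more. A library had a region if a peak of it overlapped by 1 bp or more. Genes came from RefSeq (GRCm38.p6), and starts from its promoter table or, where absent, either annotated end. Named regions were those at starts or ends, the 3 others of highest lowest fold, the widest, all called only in mutant, and the 3 leading ones called only in wild type. Members and lists were chosen with earlier results of these data known. Comparisons used exact permutation tests over libraries. Alternatives were fold, q, list size, joining, window and overlap limits, and leaving out libraries. The B cell marker count is not reported here. Region calling was tested on simulated lists. Python 3.11.15, numpy 2.4.6, pandas 2.3.3, scipy 1.17.1 and matplotlib 3.10.9 were used.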

Additional observations from a re-analysis of the deposited data

How the results depend on the processing

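Across the settings tried, the covered length over the 5 genes had a higher mean in mutant in each. Trimming lists to one size (119023 peaks) removed mostly wild-type peaks, so that setting shortens wild-type cover by construction. Genome-wide covered length was not computed under the alternatives. At the 5 genes the difference was 0.581 kb at fold 4 or more, where the genotypes overlapped. It was 17.2 kb after trimming lists to one size, and 6.73 to 14 kb with 1 library left out. The difference in peak number ran from −35 to −24 in the same way, was −14 at fold 4 or more, −12 at −log10 q of at least 5 and −12.5 with common length and joining limits, and turned to 13.5 with equal numbers of peaks per list. Regions called only in wild type numbered 7 at fold 4 or more (15.2%, against 19.7% genome-wide). At −log10 q of at least 5 they numbered 6 (6.98%, against 10.3%). They numbered 2 after trimming lists to one size (2.15%, against 4.92%) and 8 within 10 kb of the genes (10.3%, against 15.0%). With 1 library left out they numbered 17 to 31 (13.5% to 21.2%, against 19.3% to 25.4%). Regions called only in mutant numbered 1 (2.94%, against 1.55% genome-wide), 3 (3.85%, against 1.72%) and 13 (11.9%, against 6.99%) in these first 3 settings. When 50% of a region had to be covered they numbered 13 (12.6%, against 7.46%). Leaving out 1 library gave 6 to 13 (5.36% to 10.5%, against 2.56% to 4.11%). Regions called in every library numbered 33 at fold 4 or more (56.9%, against 54.0% genome-wide) and 66 within 10 kb (58.4%, against 56.7%). With 1 library left out they numbered 103 to 109 (61.1% to 65.6%, against 60.7% to 64.2%). The narrower windows and filters leave fewer regions by construction, and leaving out a library relaxes the call. At fold 4 or more, a start or end was called in 0 libraries at Ikzf1 and Ikzf2 and in 1 at Ikzf4. The Ikzf4 difference in covered length was −0.587 kb and ran from −1.43 to 0.260 kb with 1 library left out. The replicate block, a sign-flip test of same-numbered libraries, gave p = 0.5 for peak number (exact, difference −29.5) and for covered length (10.4 kb), the smallest that 2 pairs allow. Deviations of same-numbered libraries had r = −0.0693 over 102231 shared regions and −0.213 over the 103 at the Ikaros loci. With 2 libraries per genotype, this cannot decide whether same-numbered libraries were handled together. Depth is unknown, and the number of libraries limits every test.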
